A study of Mus musculus with 11 samples.

Results

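Binding of RFX1, RFX2 and RFX3 was examined at 10 mouse genes of the tectonic and MKS group of the ciliary transition zone: Tctn1, Tctn2, Tctn3, Mks1, B9d1, B9d2, Cc2d2a, Tmem216, Tmem231 and Tmem107. Peaks were taken from the 3 deposited lists of reproducible ChIP-seq peaks when their summit, the position of strongest signal, lay inside or within 10 kb of one of these genes in the RefSeq table of GRCm38. All 10 symbols matched a protein-coding gene, of 21883 in the table, and 29 of the 18008 peaks met the rule: 12 of 7440 from RFX1, 5 of 1250 from RFX2 and 12 of 9318 from RFX3.

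The cells were ependymal cells, the multiciliated lining of the brain ventricles, taken from the lateral brain walls of wild-type mice of the outbred OF1 stock and differentiated ex vivo; their labels read embryonic for tissue and P0 for age. The series had 2 ChIP samples for each of RFX1, RFX2 and RFX3, each made with an antibody to that factor, and input chromatin without antibody in 2 samples for RFX1, 2 for RFX2 and 1 for RFX3. The 2 RFX2 samples were made with different antibody lots. Each list already merged the ChIP samples of its factor, so no value carries a replicate error, and sequencing depth is unknown. ChIP peaks do not measure expression, so the cell type could not be checked from marker levels; of 6 genes known from multiciliated cells, Foxj1 had a summit of all 3 factors within 1 kb of a gene end, Ccno, Deup1 and Rfx2 of RFX1 and RFX3, and Mcidas and Rfx3 of none.

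The transition zone is the stretch of cilium just above the basal body, where Y-shaped links join the axonemal microtubules to the ciliary membrane and restrict which membrane proteins enter. Tectonic proteins, B9-domain proteins, Cc2d2a and several membrane-spanning Tmem proteins form its MKS module, and human mutations in these genes cause Meckel, Joubert and orofaciodigital syndromes. RFX factors are winged-helix proteins that bind the X-box, an inverted repeat found in many promoters of ciliary genes.

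Every gene of the group had an RFX1 and an RFX3 summit at an annotated start, and 5 of the 10 also had an RFX2 summit there; of all protein-coding genes with an annotated start, 9.46% had RFX1, 8.26% RFX3 and 2.28% RFX2 within 1 kb of it. Start summits lay no farther than 127 bp from the nearest annotated start. Beside them stood an X-box-like sequence in every case. The stretches below, from RefSeq (GRCm38.p6), show that sequence with up to 18 bases on each side, 5′ to 3′ on the strand of the gene. Capitals mark a pair of X-box arms, GTTNCC followed after 0 to 3 bases by GGNAAC, at its closest match. The second arm is the reverse complement of the first, so the pair reads the same on both strands.

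Tctn1, chr5:122264411-122264442, minus strand: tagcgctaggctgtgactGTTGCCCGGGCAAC
Tctn2, chr5:124598669-124598718, plus strand: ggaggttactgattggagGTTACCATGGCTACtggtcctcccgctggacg
Tctn3, chr19:40612341-40612389, minus strand: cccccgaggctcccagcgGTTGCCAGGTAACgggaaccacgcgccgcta
Mks1, chr11:87853173-87853222, plus strand: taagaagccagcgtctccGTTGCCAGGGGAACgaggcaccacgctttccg
B9d1, chr11:61505120-61505169, plus strand: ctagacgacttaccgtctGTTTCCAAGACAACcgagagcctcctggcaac
B9d2, chr7:25680778-25680827, plus strand: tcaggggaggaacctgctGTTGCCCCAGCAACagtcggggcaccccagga
Cc2d2a, chr5:43662335-43662383, plus strand: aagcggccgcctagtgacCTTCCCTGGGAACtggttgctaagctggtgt
Tmem216, chr19:10555714-10555762, minus strand: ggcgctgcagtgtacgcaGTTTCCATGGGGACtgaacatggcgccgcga
Tmem231, chr8:111933771-111933820, minus strand: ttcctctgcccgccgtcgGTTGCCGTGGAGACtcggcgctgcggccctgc
Tmem107, chr11:69070779-69070828, plus strand: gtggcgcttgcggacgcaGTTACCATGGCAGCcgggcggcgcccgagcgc

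The tectonic genes had some of the strongest of these sites and, at Tctn3, those farthest from the annotated start. Tctn1 encodes a tectonic protein required for normal Hedgehog signalling and for the assembly of cilia in some tissues, and lies on chromosome 5 (122239495 to 122264489, minus strand). Its RFX1 peak (chr5:122264192-122264586) had a summit 48 bp downstream of the annotated start, a fold enrichment of 14.9, and its −log10 q was 139. Here fold enrichment is the authors' ratio of ChIP signal to background, and −log10 q their false discovery rate on a log scale. The RFX2 peak had a summit 67 bp downstream, with a fold of 9.47 and a −log10 q of 33.7. The RFX3 summit lay 61 bp downstream, with a fold of 7.16 and a −log10 q of 95.4. All 3 summits fell inside the gene, at or just past an arm pair with 0 mismatches over the 10 fixed bases, which spans 36 to 49 bp after the start.

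Tctn2, which encodes a membrane-anchored tectonic, lies on chromosome 5 (124598749 to 124627738, plus strand), and its start carried the best RFX1 and RFX3 peaks of the group by −log10 q. The RFX1 peak (chr5:124598430-124598966) ranked 64 in its list, at −log10 q 174 and fold 17.1. The RFX2 peak ranked 134 (65.8, fold 11.6) and the RFX3 peak ranked 82 (132, fold 11.3). The summits sat 37, 40 and 46 bp upstream of the start for RFX1, RFX2 and RFX3, and 1023 to 1032 bp from the 3′ end of the neighbour Gtf2h3, a general transcription factor subunit gene.

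The window around the Tctn2 start, printed here because it held the best RFX1 and RFX3 peaks of the group, had arm pairs at 2 separate places. The whole window runs from 250 bp before the start and is 300 bases long (chr5:124598499-124598798, plus strand), with both pairs in capitals.

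Tctn2 window: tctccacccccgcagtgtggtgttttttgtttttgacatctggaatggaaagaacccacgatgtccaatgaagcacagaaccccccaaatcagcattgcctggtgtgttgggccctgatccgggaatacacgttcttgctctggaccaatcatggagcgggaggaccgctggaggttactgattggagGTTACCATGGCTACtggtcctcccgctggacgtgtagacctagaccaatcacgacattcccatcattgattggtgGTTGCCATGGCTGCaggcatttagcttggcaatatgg

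The upstream pair had 1 mismatch and was centred at −55.5 bp, counted from the start, and the downstream pair had 2 mismatches and was centred at 19.5 bp. Both had a spacer of 2 bases. All 3 summits lay between these centres and nearer to the upstream one. Over all protein-coding genes, 35.2% of such windows held a pair with at most 2 mismatches, as did 81.4% of those with an RFX1 summit. More than 1 such pair was also counted at other genes of the group, where counted pairs may overlap. Tctn1, Tctn3, Mks1 and Tmem216 had 3, and B9d1 and Cc2d2a had 2.

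Tctn3, which encodes another membrane-anchored tectonic, lies on chromosome 19 (40596446 to 40612324, minus strand) head to head with Entpd1, an ectonucleotidase gene. Its RFX1 peak (chr19:40612150-40612569) had a −log10 q of 56.2 and a fold of 9.48, with the summit 127 bp upstream of the Tctn3 start and 8 bp from the Entpd1 end. The RFX3 peak (34.6, fold 3.99) had its summit 100 bp upstream of the Tctn3 start. The annotated start, at 40612231, lies inside the gene as its coordinates give it. These summits were the farthest from an annotated start in the group. Counted from the 5′ end of the gene, at 40612324, they lay only 34 bp (RFX1) and 7 bp (RFX3) outside it. The RFX1 summit was nearer to the neighbour. The arm pair there had 0 mismatches with a spacer of 1 base and ran from −140 to −128 bp of the Tctn3 start. RFX2 had no peak at Tctn3.

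The genes of the B9 complex, Mks1, B9d1 and B9d2, all had the 3 factors at the start. Mks1, which is named for Meckel syndrome, lies on chromosome 11 (87853182 to 87863803, plus strand). Its RFX1 peak (chr11:87852952-87853427) had the highest fold of the group, 18.9, with a −log10 q of 166 and rank 84. The RFX2 peak had a fold of 7.92 and a −log10 q of 39.3, and the RFX3 peak a fold of 6.06 and a −log10 q of 88.2. The summits lay 18 bp upstream, 10 bp upstream and 2 bp downstream of the start for RFX1, RFX2 and RFX3. An arm pair with 0 mismatches ran from −24 to −11 bp of the start, and the RFX1 summit fell within it.

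B9d1 lies on chromosome 11 (61505144 to 61512931, plus strand) and had the best RFX2 peak of the group (chr11:61504869-61505498), with a −log10 q of 68.4, a fold of 13.5 and rank 118. Its RFX1 peak had a −log10 q of 129 and a fold of 11.8, and its RFX3 peak 61.3 and 4.34. Its RFX1, RFX2 and RFX3 summits were 12, 10 and 14 bp downstream of the start, so they lay within 4 bp of each other.

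B9d2 lies on chromosome 7 (25680780 to 25686562, plus strand) and has 2 annotated starts. Its summits lay at the upstream one: RFX1 24 bp downstream, RFX2 4 bp upstream and RFX3 31 bp downstream of it. Their −log10 q was 116, 29.7 and 62.8, and their fold 11.6, 10.7 and 5.09, for RFX1, RFX2 and RFX3. The RFX2 summit stood 28 bp from that of RFX1 and 35 bp from that of RFX3, the widest gaps of the group. The window of the downstream start held no arm pair with under 3 mismatches.

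Cc2d2a, which encodes a coiled-coil and C2-domain protein, lies on chromosome 5 (43662374 to 43740975, plus strand) and is the longest gene of the group. Its RFX1 peak (chr5:43662211-43662541) had the lowest −log10 q of the RFX1 start peaks, 34.8, with rank 3137 and a fold of 6.78. Its RFX3 peak, at −log10 q 44.3 and fold 9.37, ranked 1808 in its own list. The RFX1 summit fell on the start itself (0 bp) and the RFX3 summit 22 bp upstream.

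Among the membrane-spanning Tmem genes of the group, RFX1 and RFX3 were at the start in each and RFX2 in none. Over all protein-coding genes with an annotated start, RFX1 was at 9.46%, RFX3 at 8.26% and RFX2 at only 2.28%. Among 12 other transition zone genes with an annotated start, 3 had RFX2 there, with Tmem138 and Tmem218 among them. Tmem216, a Joubert and Meckel syndrome gene on chromosome 19 (10539326 to 10556297, minus strand), has 2 annotated starts, and the summits lay at the downstream one, 19 bp (RFX1) and 14 bp (RFX3) after it. The RFX1 peak (chr19:10555571-10555922) had a fold of 13.3 and a −log10 q of 82.5, and the RFX3 peak 5.20 and 50.9. From the gene's outer end these summits were 553 and 548 bp away, and the window of the outer start held no arm pair with under 3 mismatches.

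Tmem231, which acts in the MKS module with the B9 proteins, lies on chromosome 8 (111912007 to 111933813, minus strand). Its RFX1 peak (chr8:111933636-111933963) had a −log10 q of 52.9 and a fold of 6.78, with the summit 11 bp downstream of the start. The RFX3 peak had 46.7 and 5.17, with the summit 26 bp downstream. A further pair of peaks within the window belonged by position to Gabarapl2, an autophagy gene: the RFX1 summit (−log10 q of 30.5, fold 7.25) was 23 bp and the RFX3 summit (10.3, fold 2.83) 5 bp from its end, and 6867 and 6895 bp from Tmem231.

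Tmem107, which encodes a small membrane protein of the transition zone, lies on chromosome 11 (69070809 to 69073293, plus strand) and is the shortest gene of the group. RFX1 (chr11:69070614-69071025; −log10 q of 81.5, fold 10.6) and RFX3 (44.2, fold 4.27) had summits 4 and 6 bp upstream of its start, both within an arm pair with 1 mismatch. A weak RFX1 peak (14.7, fold 4.89, rank 6441) lay 5527 bp beyond the 3′ end of the gene and had no counterpart of RFX2 or RFX3 in the window.

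**Figure D1:**
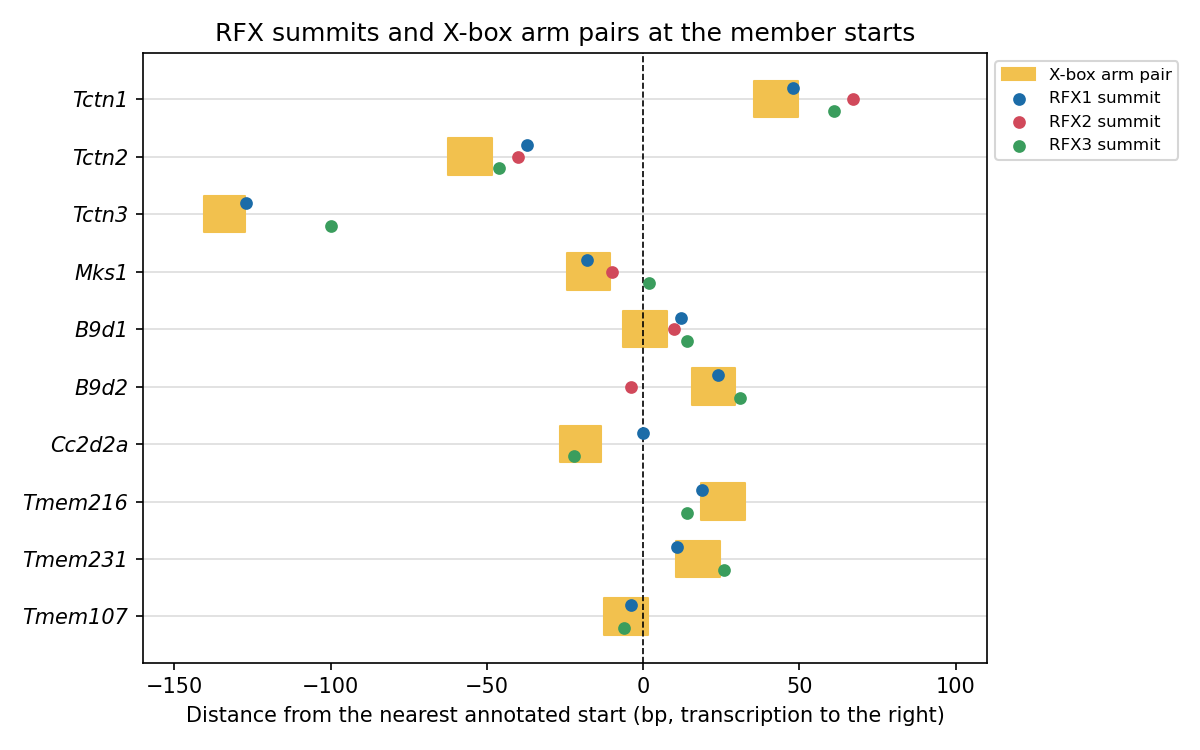
Position of RFX summits (points) and of the closest X-box arm pair (yellow boxes) at the nearest annotated start of each gene, in bp from the start with transcription to the right. All summits lie between 127 bp upstream (Tctn3, RFX1) and 67 bp downstream (Tctn1, RFX2), and RFX2 is present at 5 of the 10 genes.

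Most of the peaks near these genes were those at the starts. Merging peaks that shared at least 1 bp gave 13 regions, of which 10 were the start regions. No further region lay within 10 kb of 7 of the 10 genes, a count with no share over all genes beside it. Of the 13, 5 held all 3 factors, 6 held RFX1 and RFX3, 1 held RFX1 alone (downstream of Tmem107) and 1 held RFX3 alone. The region with RFX3 alone was inside Tctn2 at chr5:124625267-124625446, 2423 bp from its 3′ end, with a fold of 5.20 and a −log10 q of 14.2 (rank 6362). Over all 11236 regions of the series, 10.9% held all 3 factors, 38.3% RFX1 and RFX3, 16.9% RFX1 alone and 33.7% RFX3 alone. In the 1677 regions with a summit within 1 kb of a protein-coding start these shares were 20.9%, 47.3%, 21.6% and 10.1%. The 6 of 13 with RFX1 and RFX3 include the region near Gabarapl2. Of the 10 start regions, 5 held RFX1 and RFX3 without RFX2, near the 47.3% at starts, and 5 held all 3 factors, against 20.9%. The summits farthest outside a gene but inside the window were those near Gabarapl2, at 6895 bp, and the nearest excluded ones lay 10484 bp (RFX3) and 10550 bp (RFX1) from B9d1.

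Against all genes, these counts were high. An RFX1 summit lay inside or within 10 kb of 10 of 10 genes of the group, against 24.9% of protein-coding genes. For RFX2 the count was 5 of 10 against 5.93%, and for RFX3 10 of 10 against 25.3%. RFX1 and RFX3 together reached 10 of 10 against 20.4%, all 3 factors 5 of 10 against 5.87%, and at least 1 factor 10 of 10 against 29.8%. Within 1 kb of either annotated end of the gene the counts were again 10, 5 and 10 for RFX1, RFX2 and RFX3, against 9.05%, 2.08% and 7.94%. At the start, within 1 kb, RFX1 was present at 10 of 10, against 9.46% of the 17491 protein-coding genes with an annotated start in the table. RFX2 was present at 5 of 10 against 2.28%, RFX3 at 10 of 10 against 8.26%, RFX1 with RFX3 at 10 of 10 against 7.27%, at least 1 factor at 10 of 10 against 10.5%, and all 3 together at 5 of 10 against 2.26%. The exact Clopper-Pearson 95% interval of 10 of 10 runs from 69.2% to 100% and that of 5 of 10 from 18.7% to 81.3%, covering the counting of genes only. With the RFX1 and RFX3 lists shortened to the length of the RFX2 list, their best 1250 peaks, RFX1 was at the start of 7 and RFX3 of 5 of the 10 genes, against 3.34% and 2.30% of all genes with a start. The genes were picked with results of these data known, so no test was made of these shares.

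Start peaks of the group were also tight. The summit lay within 50 bp of the start at 9 of 10 RFX1 peaks, 4 of 5 RFX2 peaks and 8 of 10 RFX3 peaks, against 32.0%, 38.5% and 35.3% of all RFX1, RFX2 and RFX3 peaks at a protein-coding start. The median distance was 18.5, 10 and 24 bp in the group, against 102.5, 75 and 89 bp over all start peaks. Other transition zone genes had close summits too, so closeness to a start was not particular to the group. Their 9 RFX1 start summits lay 19, 24, 28, 29, 30, 38, 59, 152 and 178 bp from a start. Those of Tmem138 and Tmem218 were at 24 and 28 bp. Upstream and downstream were both used: 4 RFX1 summits lay before the start and 6 at or after it, and RFX3 had the same split.

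At each start the summits of the factors lay close together. RFX1 and RFX3 summits were 2 to 27 bp apart (median 11, 10 genes), against a median of 16 bp over all 5524 RFX1 peaks that overlapped RFX3. B9d1 and Tmem107 had the closest pairs, at 2 bp, and Tctn3 the widest. RFX1 and RFX2 summits were 2 to 28 bp apart (median 8, 5 genes; 12 bp over all shared peaks), and RFX2 and RFX3 summits 4 to 35 bp (median 6; 18 bp over all).

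**Figure D2:**
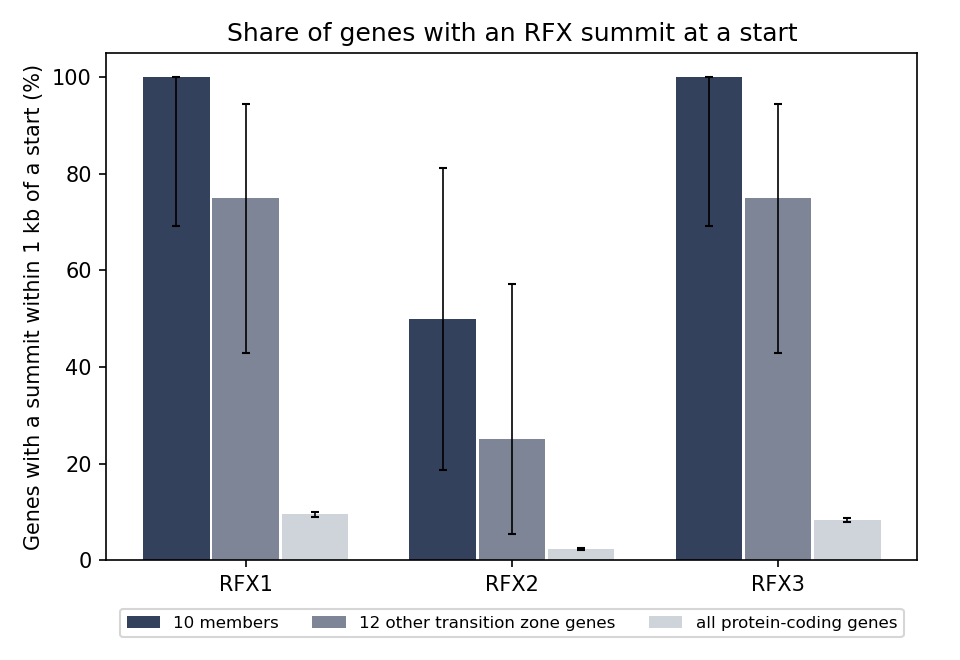
Share of genes with a summit within 1 kb of an annotated start for the 10 tectonic and MKS genes, 12 other transition zone genes and all 17491 protein-coding genes with a start; bars are percentages and lines exact Clopper-Pearson 95% intervals. RFX1 and RFX3 reach 10 of 10 in the group, and RFX2 5 of 10.

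Peak −log10 q, but not fold enrichment, separated the 5 genes of the group with RFX2 from the 5 without. At Tctn1, Tctn2, Mks1, B9d1 and B9d2, the genes with RFX2, the RFX1 −log10 q ranged from 116 to 174 (median 139). At Tctn3, Cc2d2a, Tmem216, Tmem231 and Tmem107, without RFX2, it ranged from 34.8 to 82.5 (median 56.2). The ranges did not overlap. For RFX3 the ranges were 61.3 to 132 (median 88.2) with RFX2 and 34.6 to 50.9 (median 44.3) without it, again with no overlap. By fold enrichment they did overlap: RFX1 had 11.6 to 18.9 with RFX2 and 6.78 to 13.3 without, and RFX3 had 4.34 to 11.3 and 3.99 to 9.37.

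The 5 genes with RFX2 were those whose RFX1 start peak was in the best 10% of the RFX1 list (rank 744 or better). Of all 346 RFX1 start peaks in that part of the list, 76.9% overlapped an RFX2 peak (exact interval 72.1 to 81.2), against 7.31% of the 1162 in the other 90% (5.88 to 8.97). For RFX3 the shares were 70.2% and 15.3%, and 3 of the 5 genes with RFX2 were in the best 10%. Other transition zone genes did not all follow this. Of the 3 with an RFX2 start peak, Tmem138 had its RFX1 start peak at rank 67. Tmem218 and Rpgrip1l had theirs at ranks 1126 and 1138. Their RFX1 −log10 q, 75.6 and 75.3, was below the 82.5 of Tmem216, which had no RFX2 peak. RFX2 had the shortest list, in which the group's start peaks ranked from 118 (B9d1) to 644 (B9d2), and a start without an RFX2 peak was not called there, which does not show that RFX2 was absent.

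**Figure D3:**
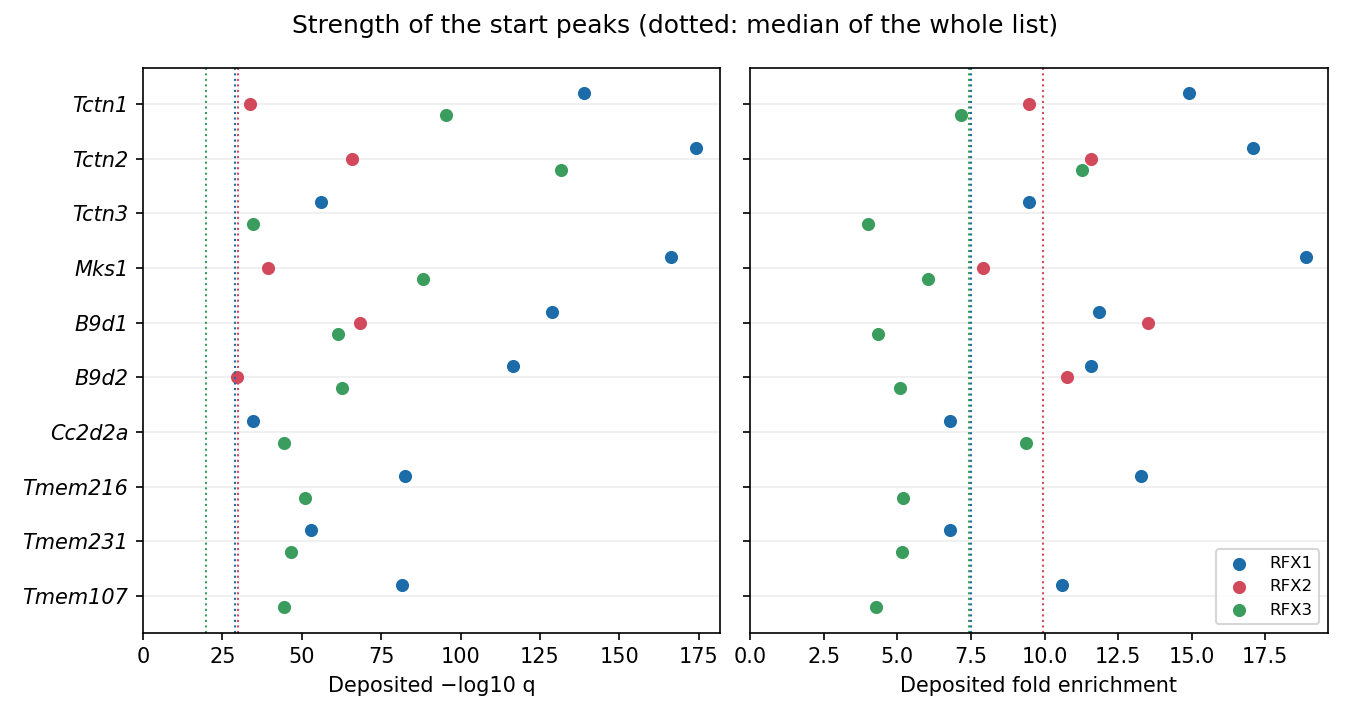
Deposited −log10 q (left) and fold enrichment (right) of the start peaks of each gene for RFX1, RFX2 and RFX3, with dotted lines at the median of each whole list. All RFX1 and RFX3 points lie above their list median of −log10 q, while 8 of 10 RFX3 points lie below their list median of fold enrichment (7.45).

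The RFX3 peaks of the group ranked high by −log10 q and low by fold enrichment. All 10 exceeded the median −log10 q of the RFX3 list (19.9), against 72.6% of RFX3 peaks at protein-coding starts, and 2 of 10 (Tctn2 and Cc2d2a) exceeded its median fold, against 17.6%. Their median percentile, with 100 for the best peak of the list, was 87.0 by −log10 q and 20.9 by fold. Over all RFX3 start peaks it was 70.7 and 18.1. So the low fold was shared with other starts, where the median fold was 4.92 against 7.84 for RFX3 peaks elsewhere.

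For RFX1, 10 of 10 exceeded the list median of −log10 q (68.8% of all RFX1 start peaks did) and 8 of 10 that of fold (57.5%). The median percentiles were 91.0 and 82.6, against 70.2 and 59.4 over all RFX1 start peaks. Only Cc2d2a and Tmem231, both at a fold of 6.78, fell below the RFX1 median fold of 7.51. For RFX2, 4 of 5 exceeded the median −log10 q (53.3% of all RFX2 start peaks) and 3 of 5 the median fold (35.6%), with B9d2 just below the first, at 29.7 against 30.1.

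**Figure D4:**
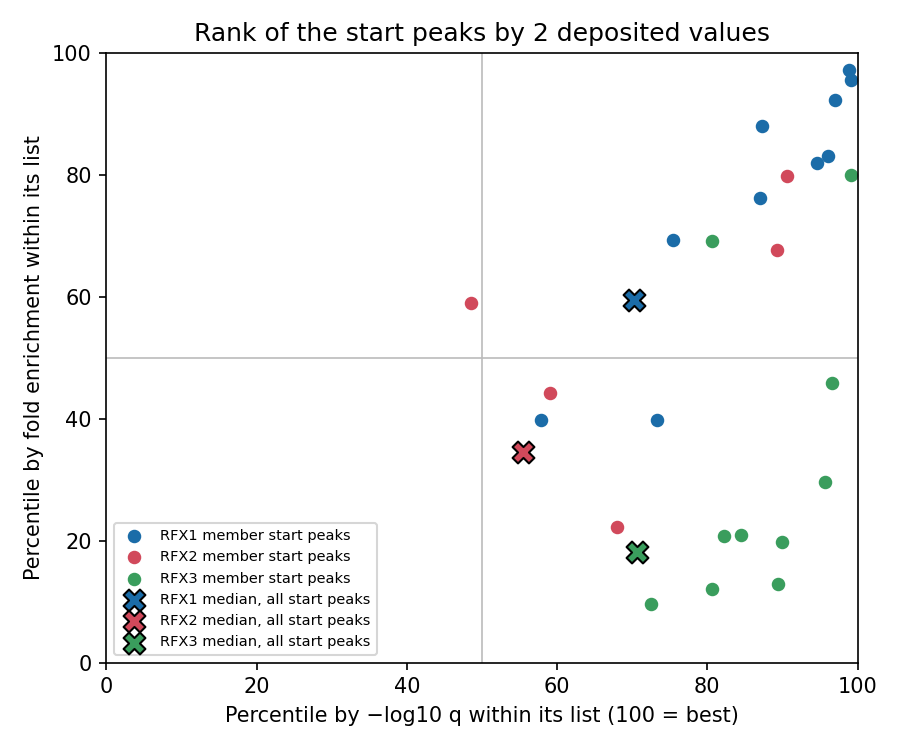
Percentile of each start peak within its own list by −log10 q (x) and by fold enrichment (y), with crosses for the medians of all start peaks of each factor. Of the RFX1 points 8 of 10 lie above their list median on both axes, while most RFX3 points lie right and low, as does the RFX3 cross (70.7 and 18.1).

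Arm pairs close to the X-box were found at the start nearest the RFX1 summit of every gene. Of the 10 windows nearest the RFX1 summits, 3 (Tctn1, Tctn3 and Mks1) held a pair with 0 mismatches and 7 a pair with 1. The 2 windows of the other annotated starts, of B9d2 and Tmem216, had 3 mismatches at best, so 10 of 12 windows in all held a pair with at most 1. Over the 21262 windows of all protein-coding genes, 0.762% held a pair with 0 mismatches, 5.58% with at most 1 and 35.2% with at most 2. Counted by gene, with any of its windows, these shares were 0.886%, 6.38% and 38.4%. Among windows with an RFX1 summit the shares were 8.54%, 40.1% and 81.4%, with an RFX2 summit 14.1%, 54.3% and 90.4%, with an RFX3 summit 9.50%, 42.6% and 83.0%, and with no RFX summit 0.305%, 3.56% and 32.4%. A single arm, GTTNCC or its reverse complement, was present in all 10 windows and in 45.3% of all windows.

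The spacer between the arms was 2 bases in 8 genes and 1 base in Tctn3 and Cc2d2a. Of the 3 pairs with 0 mismatches, those of Tctn1 and Mks1 were at genes with RFX2 and that of Tctn3 at a gene without it. RFX1 summits lay 0.5 to 20 bp from the centre of the pair (median 6.5), and 6 of 10 fell within it, at Tctn1, Mks1, B9d2, Tmem216, Tmem231 and Tmem107. Of the RFX2 summits 0 of 5 fell within the pair, and of the RFX3 summits 2 of 10 did, at Cc2d2a and Tmem107. The spacer counts and these counts have no share over all windows beside them, so they describe the group only. Summits within 20 bp of the centre numbered 10 of 10 for RFX1, 3 of 5 for RFX2 and 9 of 10 for RFX3. Over all windows with a pair of at most 1 mismatch and a summit of the factor, 77.6%, 70.9% and 69.3% did. Over all 441 such windows with an RFX1 summit the median distance was also 6.5 bp. RFX3 summits lay 0.5 to 34 bp away (median 10.5; 11.5 bp over 417 windows), with Tctn3 the farthest, and RFX2 summits 7.5 to 26.5 bp (median 15.5; 12.5 bp over 158 windows). The Tctn1 summits of RFX2 and RFX3, 67 and 61 bp after the start, lay beyond its window, which ends at 50 bp. They are counted for the group, while the shares and medians over all windows take only windows that hold a summit. Sequence beyond a window was not searched. A match is a description of the letters and was not tested as a binding site.

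**Figure D5:**
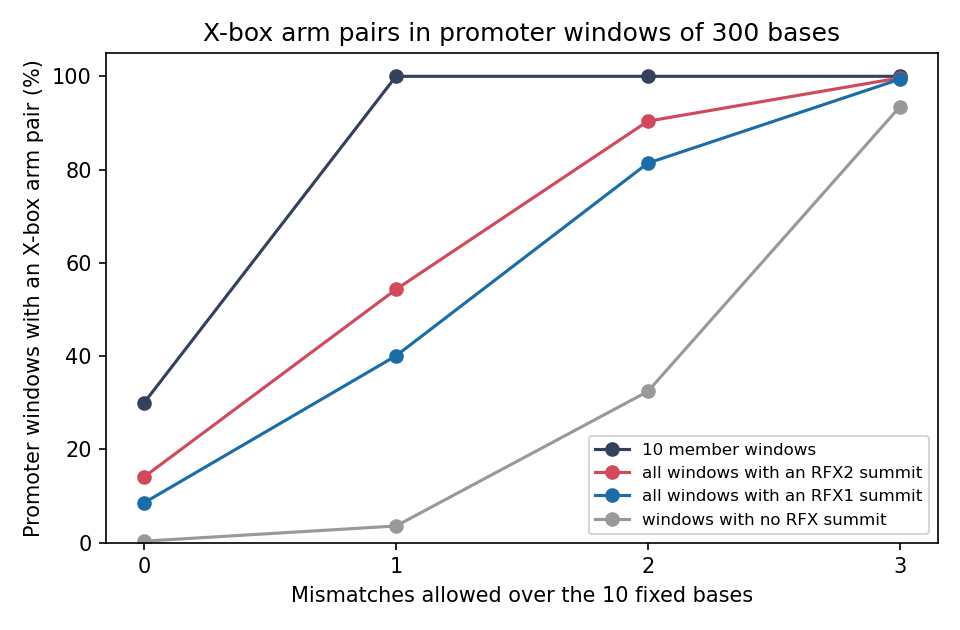
Share of promoter windows of 300 bases that hold an X-box arm pair, by the number of mismatches allowed over its 10 fixed bases. The line of the 10 windows of the group reaches all windows at 1 mismatch, where windows with an RFX2 summit are at 54.3%, with an RFX1 summit at 40.1% and with no RFX summit at 3.56%.

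Base composition of the 10 windows was close to that of other RFX1 windows. Their GC content ran from 48% (Cc2d2a) to 64.3% (Tmem216) with a median of 59.3%, against 59.7% in all windows with an RFX1 summit and 56.3% in all windows. CpG dinucleotides numbered 3 (Cc2d2a) to 28 (Tmem216) per window, with a median of 19 against 20 and 13. Cc2d2a, at the low end of both, also had the lowest −log10 q of the group's RFX1 start peaks, and whether the measures are related was not tested.

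Other genes of the transition zone also had many peaks, but not in every case. Of 14 such genes, RFX1 was within 10 kb of 12, RFX2 of 5 and RFX3 of 13, against 24.9%, 5.93% and 25.3% of all protein-coding genes. Of the 12 with an annotated start in the table, 9 had RFX1, 3 had RFX2 and 9 had RFX3 within 1 kb of it. Over all genes with an annotated start these shares were 9.46%, 2.28% and 8.26%. Tmem138, the neighbour of Tmem216 on chromosome 19, had all 3, with −log10 q of 173, 51.4 and 86.2 for RFX1, RFX2 and RFX3 and summits 24, 41 and 28 bp upstream of a start. Its summits were also 30 to 47 bp from the end of Cyb561a3, and they lay 20813 to 20830 bp from Tmem216. Tmem218 had all 3 as well, with 75.6, 35.6 and 72.5.

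In the inversin compartment, the ciliary segment next to the transition zone, none of the 3 genes examined had RFX2 or RFX3 within 10 kb, and 2 had RFX1. Anks6 of this compartment and Tmem80 of the transition zone had no summit of any factor in that range. With 10, 14 and 3 genes, and lists put together with earlier results known, the difference between the groups was not tested.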

How the data were processed

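ChIP-seq of RFX1, RFX2 and RFX3 was analysed from 3 peak lists, each merged by the authors over the 2 ChIP samples of a factor, per the peak names (11 samples in all, 5 of them inputs). Named in the submitters' processing notes are MACS2 2.0.10.20130520, the GRCm38 build, Bowtie 0.12.7 and CASAVA 1.8.2. Their settings, the control used for calling and what made a peak reproducible were not stated, so their effect on a fold or on an absent peak cannot be judged. The deposited fold enrichment is a ratio set by the authors' peak calling. For significance the authors' −log10 q-value was taken as deposited. The deposited score is the whole part of 10 times −log10 q and was not used, nor was the deposited −log10 p. These values were compared within a list only.

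Summits were assigned to RefSeq genes of GRCm38.p6 with Python 3.11.15, pandas 2.3.3 and numpy 2.4.6; intervals used scipy 1.17.1. Starts and windows (250 bp before to 50 bp after a start) came from RefSeq for 17491 genes, with 21262 windows. The assignment and the arm search were tested on simulated data. Genes and lists were chosen with earlier results of these data known, so counts are set beside all genes without a test. Every gene of the group is named with every peak. Some other listed genes, of the transition zone and the inversin compartment, are named in the results by rule. They are the 2 with the highest RFX3 −log10 q at an end and the first 2 by alphabet without a summit within 10 kb. Rpgrip1l, and 3 more in the closing section (Ahi1, Iqcb1 and Nek8), were chosen after their values were seen. An item of the list is not reported here. Depth is unknown.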

Additional observations from a re-analysis of the deposited data

How the results depend on the processing

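The results were recomputed under 74 alternatives, of which 64 kept a count within 1.5 times or left a median unchanged. With each list shortened to its best 1250 peaks, RFX3 was at 5 of the 10 genes within 10 kb, at an end and at the start; regions numbered 7, and those with RFX1 and RFX3 but not RFX2 numbered 0. Fewer peaks were kept there by construction, and over all protein-coding genes with a start RFX3 then reached 2.30%. With only peaks in the better-scoring part of both lists the median distance of RFX1 and RFX2 summits was 5.5 bp (4 genes). Ranked by fold enrichment the median percentile was 82.6 in RFX1, 59.0 in RFX2 and 20.9 in RFX3. With a window of 1 kb, RFX2 was at 3 of the other listed genes (14 transition zone and 3 inversin compartment genes). A start window of 200 bp, chosen after seeing the data, kept 10, 5 and 10 genes for RFX1, RFX2 and RFX3. No paired analysis was possible because each list merges its replicates, and for the same reason no replicate could be left out. The depth of the libraries is unknown, so it cannot be said which absent peaks it limits.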

Other observations

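A few other listed genes had summits away from their start; they were chosen after their values were seen. Ahi1, a Joubert syndrome gene, had summits of all 3 factors 7744 to 7769 bp upstream of a start, with an RFX3 fold of 28.2 and −log10 q of 85.9, against 6.55 and 55.1 for the RFX3 peak at the start itself. RFX2 was in the upstream region only. The peaks near Iqcb1, a nephronophthisis gene, were at the adjoining ends of Golgb1 and Eaf2 (RFX1 summit 11 and 14 bp away) and 2332 to 2363 bp from Iqcb1. Nek8, of the inversin compartment, had an RFX1 peak 226 bp from its nearer end and 10786 bp from its start. The summit of this peak was also 301 bp from an end of the neighbour Traf4. No RFX2 or RFX3 peak lay within 10 kb of Nek8.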
